A study of Caenorhabditis elegans with 2 samples.

Results

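Translation factor genes and aminoacyl-tRNA synthetase genes were examined for binding of ZTF-28, a protein whose gene symbol (ztf) denotes a zinc finger putative transcription factor, in whole Caenorhabditis elegans. The members were the protein-coding genes of the ce11 annotation whose symbols begin with eif-, eef- or ife-, and those of the form aars-2, with 1 or 2 letters before ars-1 or ars-2. This gave 67 of 19973 nuclear protein-coding genes, of which 36 are translation factors and 31 are synthetases. Binding had been measured by ChIP-seq, in which DNA bound by a protein is precipitated with an antibody and sequenced. The worms were of strain RW12281, with the allele st12281 that CRISPR placed in the ztf-28 gene on chromosome V, so that the protein carried TY1, EGFP and 3xFLAG tags. Chromatin was precipitated through GFP, and the 2 biological replicates form a single group with nothing to compare it against. Both replicates were young adults collected at 63 hours after synchronisation, in which larvae of the first stage hatched from bleached animals are held without food. Whole animals were used and sex was not recorded, so strong binding in few cells and weak binding in many cells could not be told apart.

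Translation factors carry the ribosome through its cycle. In initiation, eIF4E proteins hold the cap of the mRNA, eIF2 brings the initiator tRNA, eIF2B recharges eIF2 with GTP, and the many-subunit complex eIF3 organises the small ribosomal subunit. In elongation, eEF1A delivers each charged tRNA, the eEF1B proteins recharge eEF1A, and eEF2 moves the ribosome along by a codon. Aminoacyl-tRNA synthetases attach each amino acid to its tRNA, in the cytoplasm or in mitochondria. Every cell that makes protein uses these activities, though not necessarily each of these genes, since some encode the same factor.

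The deposited lists give each peak a signal in the pooled libraries and a signal in each replicate, all on a scale that no source used here states. At the 7 member peaks below, the replicate values match those in the separate lists of replicate 1 and replicate 2, within 0.0001. A peak is called reproducible if it is in the conservative list of 1086 peaks, which was thresholded on the IDR (irreproducible discovery rate). The IDR is low where a peak ranks high in both replicates, and a weak peak with like values in both can have a high IDR. A gene was counted if a summit lay in a start window, which ran from 500 bp before an annotated transcript start to 200 bp after it. Read depth is unknown, and intervals cover the counting of genes only.

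A reproducible peak lay at 6 of 36 translation factor genes (16.7%, 95% Wilson interval 7.87 to 31.9) and at 1 of 31 synthetase genes (3.23%, 0.572 to 16.2). Among all protein-coding genes the share was 2.99% (598 genes). The synthetase share was close to that background, whereas the interval of the translation factors lay above it. The intervals of the gene groups overlapped, and the difference between them was not tested. It also depended on the threshold, since at an IDR of at most 0.001 each group had 1 gene, against 1.14% of protein-coding genes. Within the translation factors, the 6 genes were 3 of 6 elongation factors and 3 of 11 eIF3 subunits. The other 19 genes with eif- or ife- symbols, which include 3 of eIF2, 5 of eIF2B and 5 of eIF4E, had none. These lists are short, and the upper Wilson limit for a count of 0 was 56.2% for eIF2 and 43.5% for eIF2B and for eIF4E. As a comparison with related gene families, cytosolic ribosomal protein genes had 23 of 76 (30.3%, 21.1 to 41.3). Mitochondrial ribosomal protein genes had 0 of 66, with an upper Wilson limit of 5.5%. The rule of 3, which takes 3 over the number of genes as the limit for a count of 0, gives 4.55%.

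**Figure D1:**
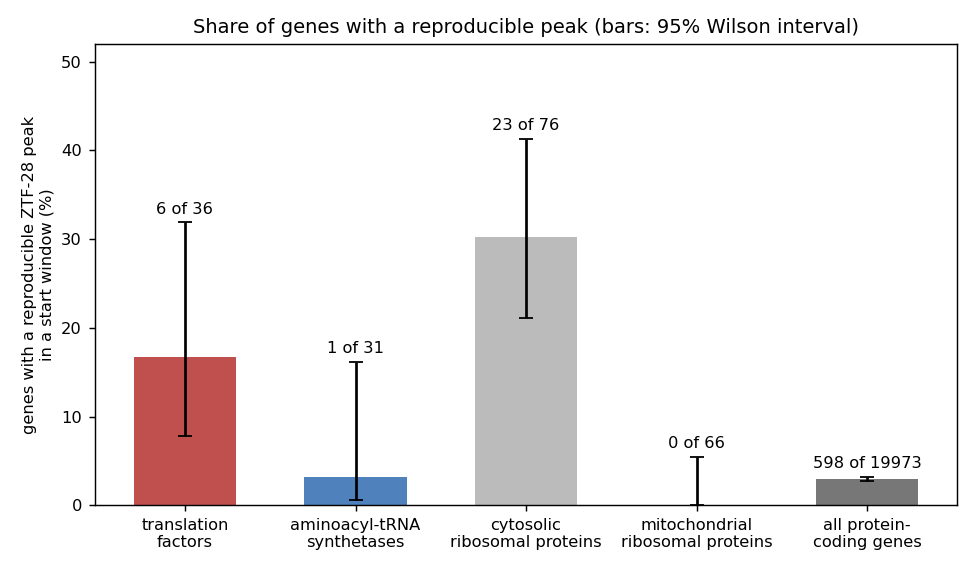
Percent of genes with a reproducible ZTF-28 peak in a start window, for 5 gene sets, with 95% Wilson intervals as vertical lines and the gene counts above them. The translation factors (6 of 36) stand between the synthetases (1 of 31) and the cytosolic ribosomal proteins (23 of 76).

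The 3 bound elongation factor genes were eef-1A.1 and eef-1A.2, which both encode the tRNA carrier eEF1A, and eef-2, which encodes the translocase. At eef-1A.1 the signal was 59.6 in replicate 1, 48.1 in replicate 2 and 109 in the pooled libraries (IDR 0.00131). The peak lay on chromosome III from 6971983 to 6972282, with its summit 421 bp upstream of the start. At eef-1A.2 the replicate values were 53.4 and 36.9 and the pooled value 91.8 (IDR 0.00431). That peak lay on chromosome X from 7823100 to 7823399, with its summit 404 bp upstream. So the eEF1A pair carried peaks at nearly the same distance from their starts. The eef-1A.1 summit, however, lay nearer to the starts of 2 other genes, rfc-4 (120 bp) and cel-mir-5549 (48 bp). The longest stretch of identical bases between the 300 bp peaks was 9 bp, against 55 bp between the gene bodies, which are 1687 and 2116 bp long. At eef-2 the replicate values were 77.1 and 44.6 and the pooled value 107 (IDR 0.00118). Its peak lay on chromosome I from 9163401 to 9163700, and its summit was 20 bp downstream of the nearest of 3 annotated starts. Of the reproducible member peaks this was the only one with a summit inside the gene.

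The remaining elongation factor genes all had a weaker ranked peak. The ranked list holds 103094 peaks of any IDR, and a ranked summit lay in the start windows of 62.7% of all protein-coding genes, so its presence alone is a weak criterion. At eef-1G, which encodes eEF1 gamma, the replicate values were 34.1 and 30.2 and the pooled value 57.0 (IDR 0.0332). At eef-1B.1, which encodes a nucleotide exchange factor of eEF1A, they were 33.7, 29.0 and 51.1 (IDR 0.0422). At its paralogue eef-1B.2 they were 25.04, 20.2 and 49.4, with an IDR of 0.221. The median of the pooled signal over the 6 elongation factor genes was 74.4, against 30.6 over the 12523 protein-coding genes with a ranked summit.

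The bound eIF3 genes were eif-3.E, eif-3.B and eif-3.G. The strongest translation factor peak was at eif-3.E, with 64.4 and 79.6 in the replicates and 151 pooled (IDR 0.000421, rank 146 of 1086 by pooled signal). It lay on chromosome I from 10642322 to 10642621, with its summit 191 bp upstream of the start. At eif-3.B, which encodes a core scaffold subunit, the values were 34.2, 58.1 and 88.1 (IDR 0.00542), and the summit lay 201 bp upstream of the start on chromosome II. At eif-3.G, which encodes an RNA-binding subunit, they were 33.8, 43.9 and 75.1 (IDR 0.00944), at rank 970 and 373 bp upstream. This was the member peak closest to the edge of the conservative list. The next subunit, eif-3.C, had nearly the same pooled signal, 75.1, with replicate values of 27.0 and 51.7 further apart, and an IDR of 0.0243 kept it out of that list. In the other thresholded list deposited for both libraries, with 1137 peaks, eif-3.C was included and eif-3.G was not, so the count of 6 stayed but its members differed by 1 gene.

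The other eIF3 subunits covered a wide range. The pooled signals were 47.3 at eif-3.D, 40.9 at eif-3.I, 23.7 at eif-3.H, 11.2 at eif-3.L, 6.41 at eif-3.K and 4.87 at eif-3.J, and eif-3.F had no ranked summit. Among protein-coding genes with a ranked summit, the subunits ran from a percentile of 99.1 (eif-3.E) to one of 1.61 (eif-3.J). At eif-3.I a further, weaker summit in its windows had a lower IDR, 0.0261. In the fungus Neurospora crassa, subunits K and L are dispensable for growth, and a link of this to the signals was not tested.

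**Figure D2:**
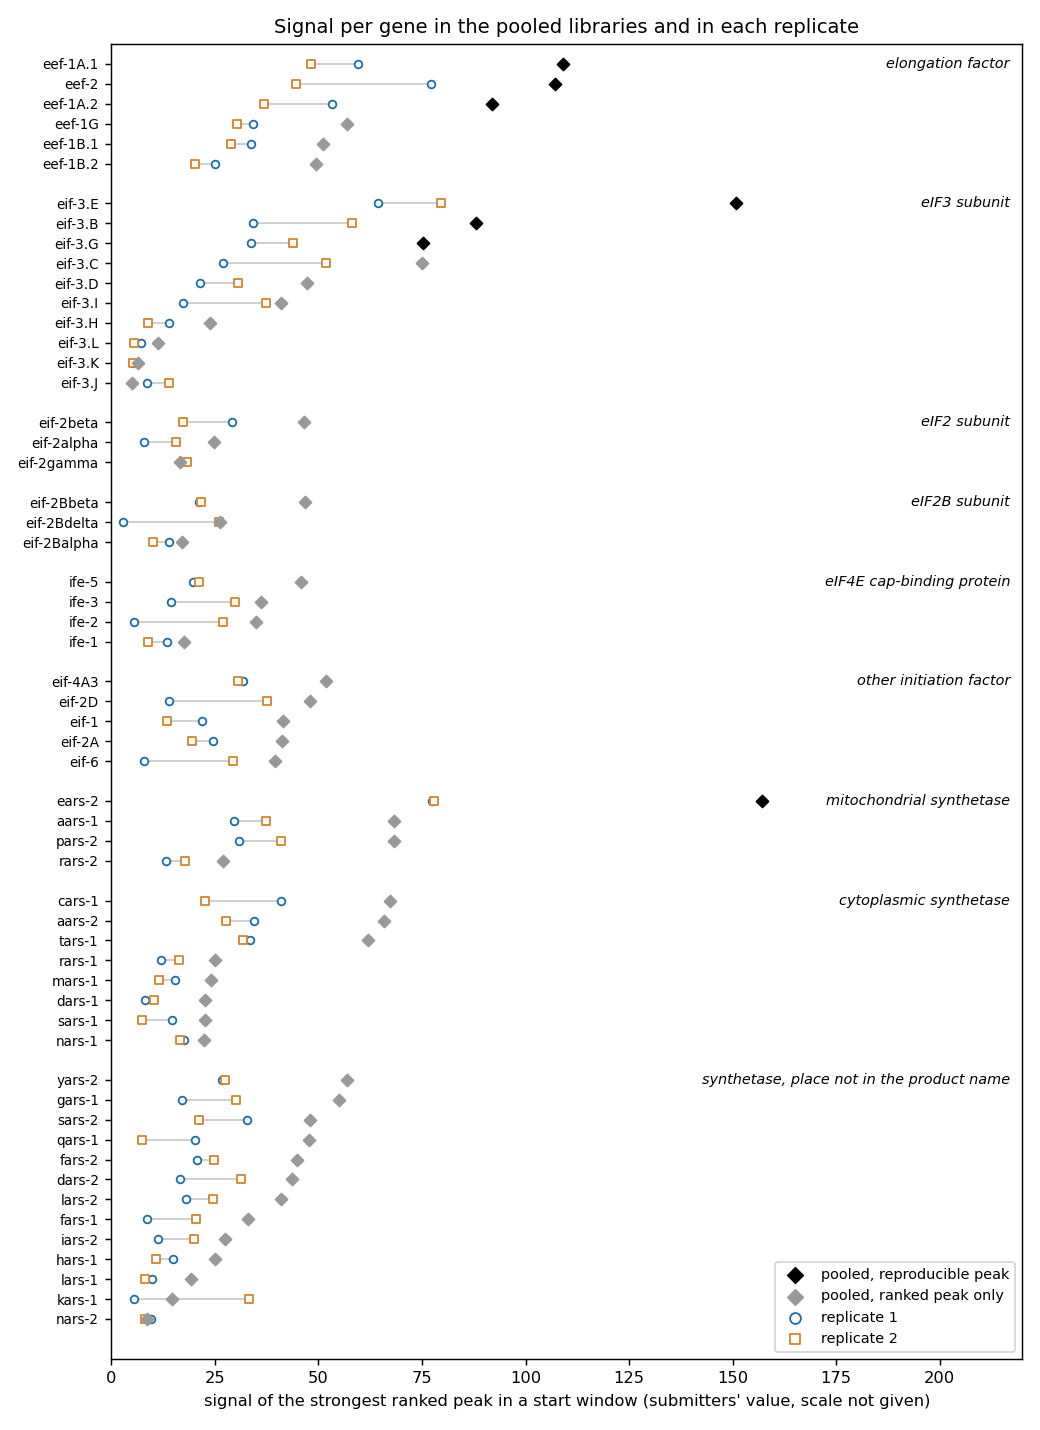
Signal of the strongest ranked peak in a start window of each of the 56 member genes that had one, grouped by role, with replicate 1 as circles, replicate 2 as squares and the pooled libraries as diamonds (black where the peak is reproducible). In the 6 elongation factor genes the circle lies to the right of the square, and black diamonds are found among the elongation factors, eIF3 subunits and mitochondrial synthetases.

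The genes with eif- or ife- symbols outside eIF3 had no reproducible peak, and their signals overlapped those of the weaker eIF3 subunits. In eIF2, the pooled signal was 46.4 at eif-2beta, 24.8 at eif-2alpha and 16.6 at eif-2gamma, the GTPase subunit. In eIF2B it was 46.6 at eif-2Bbeta, 26.3 at eif-2Bdelta and 17.0 at eif-2Balpha, while eif-2Bgamma and eif-2Bepsilon had no ranked summit in their windows. The eif-2Bgamma gene lay downstream of a reproducible peak of signal 109 at 887 bp from its start, outside the window. Another gene on the same strand, C15F1.5, ended 252 bp upstream of eif-2Bgamma, nearer than that peak. Of the 5 genes of the cap-binding eIF4E proteins, ife-5 had 45.7, ife-3 had 36.1, ife-2 had 35.0, ife-1 had 17.5 and ife-4 had no ranked summit. The pooled signal was 51.9 at eif-4A3, the homologue of a core protein of the exon junction complex (replicates 31.7 and 30.5, IDR 0.0403). It was 47.9 at eif-2D, 41.5 at eif-1, 41.1 at eif-2A and 39.5 at eif-6, an anti-association factor of the large ribosomal subunit. The median percentile among protein-coding genes was 35.8 for the eIF2 subunits, 39.3 for eIF2B, 61.1 for eIF4E, 75.9 for eIF3 and 92.8 for the elongation factors.

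Among the synthetases the single reproducible peak was at ears-2, which encodes the mitochondrial glutamyl-tRNA synthetase. The replicate values were 77.4 and 77.8 and the pooled value 157 (IDR 0.00029), the highest of all 67 members and rank 126 of 1086. The replicates thus gave nearly equal values. The peak lay on chromosome IV from 390338 to 390637, and its summit lay between 2 divergent genes, 20 bp upstream of ears-2 and 72 bp upstream of uncp-18, which encodes a syntaxin-binding protein. Which of these genes the peak belongs to cannot be told from the position.

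Bases at the 5 reproducible summits that may be printed here are shown to let the elongation factor, eIF3 and synthetase sites be compared. Each run is the 151 bases centred on the summit in the WBcel235 sequence (RefSeq), read 5′ to 3′ on the strand of the member gene, and capitals mark each CG dinucleotide. They come from chrIII:6972058-6972208 (minus strand), chrX:7823175-7823325 (plus), chrII:14795128-14795278 (plus), chrII:8442319-8442469 (plus) and chrIV:390413-390563 (minus).
eef-1A.1: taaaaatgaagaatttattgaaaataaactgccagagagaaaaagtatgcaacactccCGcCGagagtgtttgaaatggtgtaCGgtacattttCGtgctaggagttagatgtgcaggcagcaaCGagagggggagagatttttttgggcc
eef-1A.2: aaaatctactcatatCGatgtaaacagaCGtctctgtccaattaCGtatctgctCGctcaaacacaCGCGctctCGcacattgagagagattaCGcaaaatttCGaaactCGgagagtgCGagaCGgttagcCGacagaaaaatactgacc
eif-3.B: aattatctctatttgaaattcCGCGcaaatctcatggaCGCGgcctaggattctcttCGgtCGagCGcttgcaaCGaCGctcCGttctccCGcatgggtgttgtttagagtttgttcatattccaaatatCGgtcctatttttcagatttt
eif-3.G: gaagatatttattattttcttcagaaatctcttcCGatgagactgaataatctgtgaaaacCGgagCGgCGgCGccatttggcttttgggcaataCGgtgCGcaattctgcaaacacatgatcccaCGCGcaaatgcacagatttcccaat
ears-2: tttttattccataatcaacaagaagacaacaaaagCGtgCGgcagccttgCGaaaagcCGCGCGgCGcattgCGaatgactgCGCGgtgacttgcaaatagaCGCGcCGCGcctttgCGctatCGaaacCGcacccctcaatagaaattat

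The windows held 5 CG dinucleotides at eef-1A.1, 13 at eef-1A.2, 12 at eif-3.B, 9 at eif-3.G and 17 at ears-2, and 7 and 12 at the sites of eef-2 and eif-3.E. The median was 10 over all reproducible summits and 4 over 151 bp regions centred 150 bp upstream of each protein-coding gene's outermost start. GC content was 42.4% at eef-1A.1 and 51.0% at ears-2, the lowest and highest of the 7 sites, against medians of 47.4% at all reproducible summits and 33.8% in the start regions. Of the 7 member sites, eef-1A.1 was the one with a CG count nearest to the start regions. The eEF1A pair, although alike in distance and signal, differed in CG count. The CG count was chosen after the sequences were seen.

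Short words of known elements were mostly absent from these sites. On either strand, GGTTCGA, from box B of tRNA genes, was found at 0 of the 7 sites, against 11.9% of all reproducible summits, 2.79% of those away from small RNA genes, and 0.681% of start regions. CTGCGTC was found at 0 (5.99% and 2.61%), the GC box letters GGGCGG at 0 (9.67% and 3.86%) and the E2F word TTCCCGC at 0 (5.34% and 1.75%). The GATA word TGATAA was found at eif-3.E (5.62% and 17.3%). Of the words chosen because they were common at all reproducible summits, GCGCGC was found at eif-3.E (12.5% and 2.11%) and GCGCGAA, which partly overlaps it, at none (7.37% and 1.19%). With 7 sites, absence says only that these letters are not in these windows.

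The synthetase genes next in signal were aars-1, pars-2, cars-1, aars-2 and tars-1. At aars-1, named in RefSeq as the mitochondrial alanine enzyme, the replicate values were 29.5 and 37.2 and the pooled value 68.3 (IDR 0.0268). At pars-2, the mitochondrial proline enzyme, they were 30.9, 41.0 and 68.2 (IDR 0.0167), the lowest IDR of any member outside the conservative list. At cars-1, the cytoplasmic cysteine enzyme, they were 41.0, 22.7 and 67.3 (IDR 0.0943). At aars-2, the cytoplasmic alanine enzyme, they were 34.5, 27.6 and 65.7 (IDR 0.0482), and at tars-1, the cytoplasmic threonine enzyme, 33.5, 31.8 and 62.0 (IDR 0.0283). Both alanine enzymes thus had nearly the same pooled signal.

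Of the 31 synthetases, RefSeq product names place 4 in mitochondria and 10 in the cytoplasm and leave 17 without a place. The 4 mitochondrial genes had pooled signals of 157 (ears-2), 68.3 (aars-1), 68.2 (pars-2) and 26.9 (rars-2, arginine). The cytoplasmic genes had no reproducible peak and a median of 24.6 over the 8 with a ranked summit, from 22.4 at nars-1, the asparagine enzyme, to 67.3 at cars-1. The ranges overlapped, and the difference was not tested. The 17 genes without a stated place can belong to either compartment, so neither list need be complete. They had no reproducible peak and a median of 41.0 over the 13 with a ranked summit. Their values ran from 8.56 at nars-2 to 56.9 at yars-2, a tyrosine enzyme. No ranked summit lay at ears-1, iars-1, pars-1, vars-1, wars-1 and yars-1, which serve glutamate, isoleucine, proline, valine, tryptophan and tyrosine. For glutamate, proline and tyrosine, 1 synthetase gene had a ranked peak of at least 56.9 in signal while the other had none.

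Over each group, the median pooled signal of the strongest ranked peak was 45.7 for the 31 translation factor genes that had one (4.87 to 151) and 41.0 for the 25 synthetase genes (8.56 to 157). Both medians stood above the 30.6 of all protein-coding genes and below the 62.2 of cytosolic ribosomal protein genes. Genes without a ranked summit, 5 and 6 in the respective groups, are left out of these medians. With such genes counted at 0, the median was 41.0 for the translation factors, 26.9 for the synthetases and 18.3 for all 19973 protein-coding genes. With the IDR limit set to 0.05, which was done after the data had been seen, 11 of 36 translation factor genes (30.6%) and 5 of 31 synthetase genes (16.1%) had a summit, against 5.32% of protein-coding genes. The genes added at this threshold were eef-1B.1, eef-1G, eif-3.C, eif-3.I and eif-4A3, and aars-1, aars-2, pars-2 and tars-1.

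**Figure D3:**
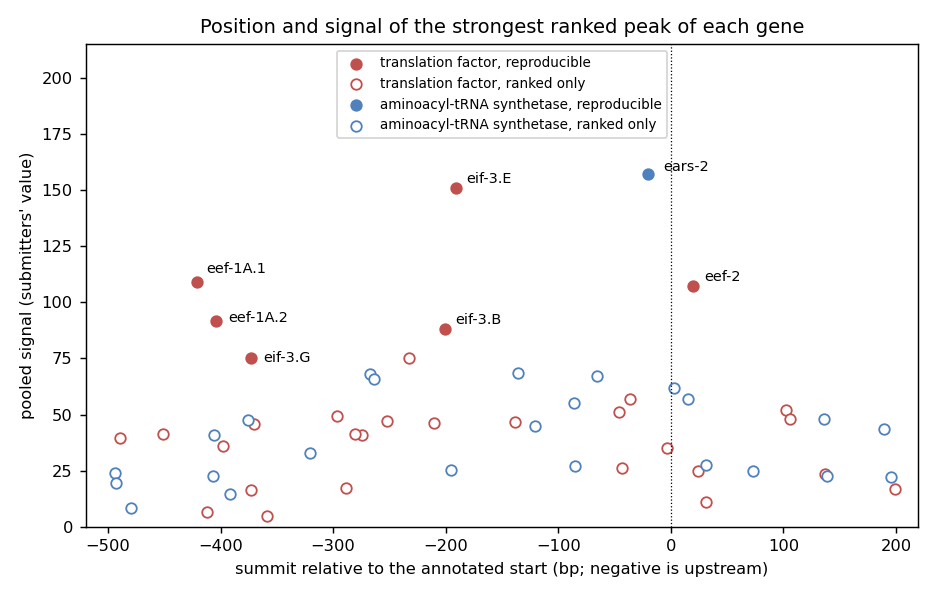
Distance in bp of the strongest ranked summit of each gene from the nearest annotated start that holds it in its window, against the pooled signal, with filled points for reproducible peaks. Of the 7 reproducible summits, 6 are upstream of the start, with eef-1A.1, eef-1A.2 and eif-3.G between 373 and 421 bp away, and eef-2 lies 20 bp downstream.

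Elongation factor and eIF3 genes differed in which replicate gave the higher value. The strongest peak was higher in replicate 1 at 6 of 6 elongation factor genes, with a median ratio of replicate 1 to replicate 2 of 1.24 and the largest ratio, 1.73, at eef-2. It was higher in replicate 2 at 7 of 10 eIF3 genes, with a median ratio of 0.733, and the 6 strongest (eif-3.E, eif-3.B, eif-3.G, eif-3.C, eif-3.D and eif-3.I) were all among the 7. Over all protein-coding genes with a ranked summit, replicate 1 was the higher in 47.1%, and over the 1086 reproducible peaks in 42.6%, with a median ratio of 0.955 and quartiles of 0.800 and 1.17. Of the reproducible peaks, those of eef-1A.1 (1.24), eef-1A.2 (1.45) and eef-2 (1.73) were above the upper quartile, and those of eif-3.B (0.590) and eif-3.G (0.769) below the lower one. The peak of eif-3.E (0.809) was within the quartiles, as was that of ears-2 (0.994). Cytosolic ribosomal protein genes had replicate 1 higher in 47.8%. The lean to replicate 2 was not particular to eIF3. Replicate 2 was also higher at 3 of 4 eIF4E genes (median ratio 0.704) and 4 of 4 mitochondrial synthetase genes (0.773). Replicate 1 was higher at 6 of 8 cytoplasmic synthetase genes (1.155). The grouping by role was noticed in the data, each ratio rests on 1 library on either side, and no test was made.

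**Figure D4:**
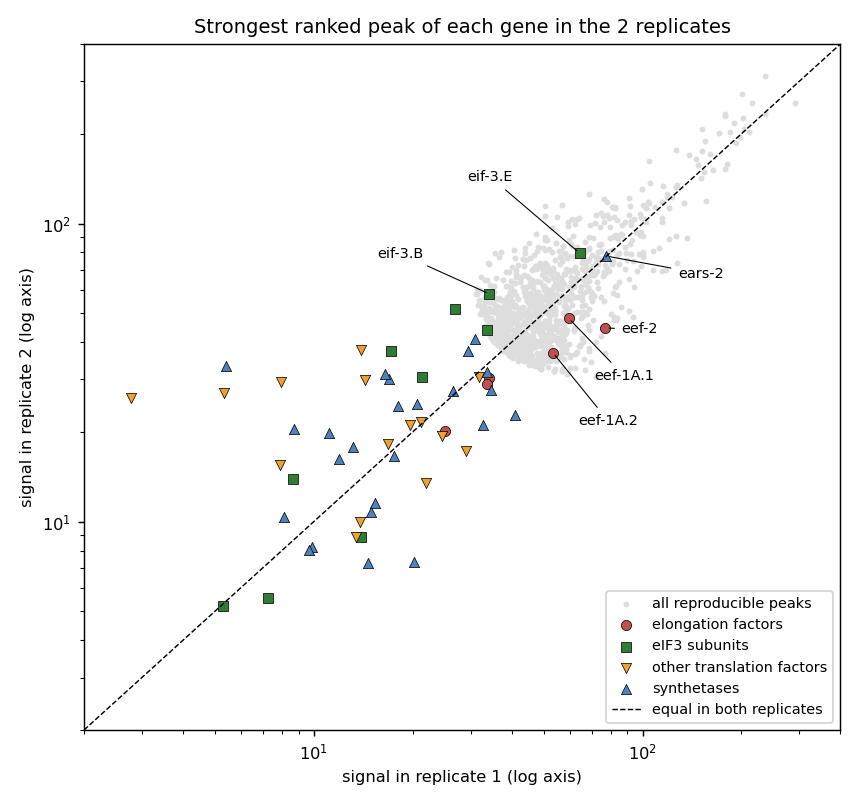
Signal of the strongest ranked peak of each member gene in replicate 1 (horizontal) and replicate 2 (vertical), both on log axes, over all 1086 reproducible peaks in grey. The 6 elongation factor genes lie below the dashed line of equal values, and the 6 strongest eIF3 genes lie above it.

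The replicate lists taken alone kept fewer genes. In the thresholded list of replicate 1, with 342 peaks, eef-1A.1, eef-2 and eif-3.E were found, 3 of the 36 translation factors, against 1.17% of protein-coding genes. In that of replicate 2, with 411 peaks, only eif-3.E of the translation factors was found, against 1.36%. The ears-2 peak was in both. The count of 6 translation factor genes therefore rests on the comparison of both libraries, while eif-3.E and ears-2 were found in each library alone.

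Summits of 3 of the 7 reproducible peaks also lay in the start windows of other genes. How often this holds over all 1086 reproducible peaks was not counted. The eef-1A.1 summit was 120 bp upstream of rfc-4, which encodes a subunit of the replication clamp loader, and 48 bp upstream of the microRNA gene cel-mir-5549. The eef-2 summit was 285 bp upstream of clsp-1, the homologue of the replication checkpoint protein claspin. The ears-2 summit was shared with uncp-18, as given above. All of rfc-4, clsp-1 and uncp-18 are transcribed away from the member gene, so these peaks lie in divergent start regions. Which gene each of these peaks belongs to cannot be told from the position. No member peak was shared with a tRNA, snoRNA or snRNA gene. Most reproducible summits, 826 of 1086, were likewise outside the windows of such genes.

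Many worm genes lie in operons, closely behind another gene on the same strand, and are then transcribed from a start further upstream. A protein-coding gene on the same strand ended within 500 bp upstream at 7 of 36 translation factor genes (19.4%) and 10 of 31 synthetase genes (32.3%), against 18.1% of all protein-coding genes. Of the 7 genes with a reproducible peak, 0 had such a neighbour, against 14.4% of the 598 protein-coding genes with one, so that with 7 genes a count of 0 is near that share. Of the 11 member genes without a ranked summit 4 had such a neighbour (36.4%), and of the 56 with a ranked summit 13 did (23.2%). The difference was not tested. Over all 12523 protein-coding genes with a ranked summit the share was 18.9%, slightly above the 18.1% of all protein-coding genes. Among all genes, such a neighbour was therefore not more common where a ranked summit was missing.

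Genes of the translation machinery outside the symbol rule were looked up as well. Of 28 symbols listed, 26 were found, and 4 of these had a reproducible peak (15.4%, 6.15 to 33.5), against 2.99% of all protein-coding genes. These were iff-2, which encodes eIF5A (replicates 54.4 and 58.1, pooled 114), tufm-2 and tufm-1, homologues of the mitochondrial elongation factor Tu (91.8 and 77.5 pooled), and clu-1 (86.8 pooled). The summit at tufm-2 is also in the window of exoc-7, and that at clu-1 in the window of prp-40. Values between 56.4 and 77.8 without a reproducible peak were found at gfm-1, the gene of a mitochondrial elongation factor G, efk-1, the kinase of eEF2, fars-3, a subunit of the phenylalanine enzyme, and erfa-3, a release factor. No ranked summit lay at ifg-1, which encodes eIF4G, abce-1, abcf-1 or ifet-1.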

How the data were processed

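Peak lists were deposited for 2 ChIP-seq libraries of 1 group, in assembly ce11 per the labels. The aligner and the peak caller were not given in the sources used here. The authors' signal per peak was used as deposited, pooled and per replicate, and its scale is not given. The deposited score and the −log10 of the global IDR were used to say which peaks pass. No read depth is given, and no control library was analysed.

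Starts and gene classes came from Ensembl release 115 (WBcel235, the ce11 sequence), without the mitochondrial genome. Each peak was taken as its summit, and a gene's value is its strongest ranked peak in a start window. Counts were set beside the share of all protein-coding genes, with no set test and no p-value, and signal differences were described only. The window search was tested on simulated summits. The members and lists were chosen with earlier results of these data known. Named genes were members with a reproducible peak, the 5 next in signal per group, the eef-1A pair, genes sharing a summit, and genes of the wider list with a reproducible peak. Other members, and genes of the wider list without a reproducible peak, were named after their values were seen. Alternatives were other lists, IDR thresholds, windows and starts. Tables were read with pandas 2.3.3 and NumPy 2.4.6 in Python 3.11.15, intervals came from SciPy 1.17.1, and plots from matplotlib 3.10.9.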

Additional observations from a re-analysis of the deposited data

How the results depend on the processing

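The count of 6 translation factor genes was 1 at an IDR of at most 0.001 (eif-3.E), 1 to 3 in the list of a single replicate, 3 in the window of 250 bp upstream and 100 bp downstream (eef-2, eif-3.B and eif-3.E), and 11 at an IDR of at most 0.05. It stayed at 6 or 7 with the other thresholded list of both libraries (where eif-3.C took the place of eif-3.G), all passing ranked peaks, the window of 1000 bp, the most upstream start, and without summits at small RNA genes. The synthetase count stayed at 1, always ears-2, except for 5 at an IDR of at most 0.05. The share of all protein-coding genes moved too, to 1.14% at the stricter IDR, 1.17% to 1.36% in single replicates, 1.84% and 3.87% in the narrow and wide windows, 2.76% with the most upstream start, 2.71% without small RNA summits and 5.32% at the looser IDR. The median signal of the translation factors was 41.0 with genes without a summit at 0, 32.2 in the narrow window and 21.2 to 27.0 in single replicates, whose scale is lower. That of the synthetases was 26.9, 31.3 and 17.0 to 21.1, and 26.9 with the most upstream start. For the narrow window and the most upstream start no median of all protein-coding genes is given here. Whether the group medians stand above that background in those settings is therefore not shown. The cause of the moves was not tested. The unknown depth limits how low a peak could have been found.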

Other observations

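Y105E8A.20, which RefSeq names mars-2, carries no symbol of that form in the Ensembl annotation and was not counted. It had no reproducible peak, and its strongest ranked summit had a pooled signal of 36.4 with replicate values of 5.17 and 31.6.

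Outside the start windows, a reproducible summit inside a member gene was found at fars-1, where a peak of pooled signal 109 lay 1351 bp downstream of the nearest annotated start. At rars-1 the nearest reproducible summit was 1038 bp upstream of a start, with a signal of 112. Another gene on the same strand, rpb-8, ended 66 bp upstream of rars-1, nearer than that summit.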
